A study of Mus musculus with 12 samples.

Results

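The 39 genes described here encode proteins that carry a cell through mitosis, among them cyclins, mitotic kinases, kinetochore proteins, spindle motors and the proliferation marker Ki-67. They were chosen by name from a fixed list, with earlier results of these data known. Each was read from the brightest probe set that the platform annotation pairs with 1 symbol only. Of these, 38 had such a probe set among the 19938 genes measured, and Ccnb1 (cyclin B1) had none. All 38 lay among the 9969 genes with the higher mean level over the arrays (the brighter genes), so no member was lost to a filter on low values. A single member, Top2a, had 2 such probe sets.

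Transcripts were measured on 12 Affymetrix arrays, 1 for each RNA sample. The samples came from KY-1 and KY-2, 2 mouse lines of natural killer (NK) cells. Every sample lacked p53 (genotype p53KO) and was grown in cRPMI with 200 U/mL human IL-15, the cytokine that keeps NK cells alive and dividing. Cells were transduced with a vector for GFP alone or for GFP, a P2A peptide and FLAG-tagged Myb in 1 reading frame, and GFP-positive cells were sorted. The 4 groups were KY-1 with GFP (3 arrays), KY-1 with Myb (4 arrays), KY-2 with GFP (2 arrays) and KY-2 with Myb (3 arrays). Both are cultured lines, each a single cell source, so a difference between KY-1 and KY-2 compares these lines and no wider class of NK cells. The labels do not say that the arrays of a group came from separate cultures, so the p-values rest on the variation among these samples alone, and this may be technical.

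Mitotic transcripts are made late in the cell cycle, in G2 and mitosis, and fall after division. Their promoters commonly hold a CHR element (cell cycle genes homology region) near the start and CCAAT boxes upstream of it, and these are read by the MuvB complex with the B-Myb protein and FoxM1, and by NF-Y. In resting cells the DREAM complex holds the same promoters silent through MuvB, and p53 acts on them through the inhibitor p21 and DREAM. B-Myb (Mybl2) and Myb are relatives that bind the same DNA core. In bulk RNA, a lower share of cells in G2 or mitosis and less transcript per mitotic cell cannot be told apart.

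Promoter windows of 300 bases, from 250 before to 50 after the annotated start, were matched for 31 of the 38 members in the RefSeq table of GRCm38.p6. The 7 below are shown because Mki67 and Cenpf had the smallest p-values for the Myb vector in KY-1, Ccnb2 was among the first in KY-2, and Nuf2, Ndc80, Kif23 and Hmmr differed most between the lines with GFP. All 7 lie on the minus strand and are written 5′ to 3′ on the strand of the gene. Capitals mark CHR matches (TTTGAA or TTTAAA) and CCAAT boxes (CCAAT) on either strand, so TTCAAA and ATTGG are the same elements reversed. The regions are Mki67 at chr7:135716330-135716629, Cenpf at chr1:189688037-189688336, Nuf2 at chr1:169531415-169531714, Ndc80 at chr17:71526808-71527107, Kif23 at chr9:61946750-61947049, Hmmr at chr11:40733388-40733687 and Ccnb2 at chr9:70421505-70421804.
Mki67: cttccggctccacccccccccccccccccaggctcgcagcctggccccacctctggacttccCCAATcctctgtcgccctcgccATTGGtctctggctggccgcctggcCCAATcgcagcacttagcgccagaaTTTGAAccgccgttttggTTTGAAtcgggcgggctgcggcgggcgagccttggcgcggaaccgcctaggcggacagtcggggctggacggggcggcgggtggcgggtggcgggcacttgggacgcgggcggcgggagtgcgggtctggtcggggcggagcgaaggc
Cenpf: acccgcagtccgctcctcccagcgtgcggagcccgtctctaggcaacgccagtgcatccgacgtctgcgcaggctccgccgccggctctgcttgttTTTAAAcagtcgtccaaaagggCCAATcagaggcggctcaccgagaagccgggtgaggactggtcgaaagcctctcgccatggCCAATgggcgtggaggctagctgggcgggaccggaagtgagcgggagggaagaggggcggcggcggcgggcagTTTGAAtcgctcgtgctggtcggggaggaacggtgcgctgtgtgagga
Nuf2: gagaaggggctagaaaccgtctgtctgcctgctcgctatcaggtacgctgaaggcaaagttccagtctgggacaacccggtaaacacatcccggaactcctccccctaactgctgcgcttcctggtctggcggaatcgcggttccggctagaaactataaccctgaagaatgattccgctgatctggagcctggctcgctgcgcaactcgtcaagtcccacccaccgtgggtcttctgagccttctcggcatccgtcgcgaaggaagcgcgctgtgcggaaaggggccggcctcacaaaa
Ndc80: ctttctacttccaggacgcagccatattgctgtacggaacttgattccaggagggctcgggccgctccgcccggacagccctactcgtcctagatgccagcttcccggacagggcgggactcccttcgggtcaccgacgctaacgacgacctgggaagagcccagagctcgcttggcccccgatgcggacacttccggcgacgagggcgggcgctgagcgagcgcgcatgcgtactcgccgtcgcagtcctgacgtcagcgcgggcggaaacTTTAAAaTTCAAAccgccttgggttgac
Kif23: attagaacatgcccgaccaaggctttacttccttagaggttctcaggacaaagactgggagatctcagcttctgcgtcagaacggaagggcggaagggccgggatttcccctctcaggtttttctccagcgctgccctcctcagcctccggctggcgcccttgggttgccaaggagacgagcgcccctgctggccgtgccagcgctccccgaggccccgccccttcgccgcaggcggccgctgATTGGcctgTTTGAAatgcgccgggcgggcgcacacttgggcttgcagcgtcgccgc
Hmmr: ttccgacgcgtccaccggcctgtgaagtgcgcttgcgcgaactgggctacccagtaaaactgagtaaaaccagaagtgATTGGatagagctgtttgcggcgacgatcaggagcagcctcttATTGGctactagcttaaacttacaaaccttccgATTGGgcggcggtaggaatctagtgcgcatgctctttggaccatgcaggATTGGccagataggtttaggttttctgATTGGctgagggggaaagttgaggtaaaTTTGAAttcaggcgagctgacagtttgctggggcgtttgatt
Ccnb2: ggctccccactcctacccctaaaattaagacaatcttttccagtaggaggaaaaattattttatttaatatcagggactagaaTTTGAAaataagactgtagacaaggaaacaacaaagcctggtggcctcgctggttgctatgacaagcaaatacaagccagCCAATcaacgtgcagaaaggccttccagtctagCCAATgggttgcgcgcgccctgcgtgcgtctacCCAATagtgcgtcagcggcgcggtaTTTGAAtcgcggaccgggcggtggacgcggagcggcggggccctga

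A CHR match was found in 25 of the 31 member promoters (80.6%), against 27.8% of the 27025 promoters in the table and 18.8% of the 8040 promoters of brighter genes. Of the 38 matches in members, 78.9% began within 100 bases before to 50 after the start, against 40.6% of the matches over all promoters. A CCAAT box was found in 23 of 31 (74.2%, against 37.9% over all and 39.2% in brighter genes), and 48.4% of members held 2 or more (12.2% over all). In the windows shown, Mki67 holds 2 CHR matches and 3 CCAAT boxes, Hmmr 1 and 5, Ccnb2 2 and 3, and Cenpf 2 and 2. Kif23 holds 1 of each, close to the start, Ndc80 holds 2 adjacent CHR matches and no CCAAT box, and Nuf2 holds neither. The Myb core (AACGG or AACTG) was found in 67.7% of members and 55.2% of all promoters (52.9% of those of brighter genes), and the narrower AACGG in 29.0% and 17.7% (24.3% of those of brighter genes). An E2F-like sequence (either TTCGCG, a second form TTCCCGC or a further form TTGGCGC) was found in 22.6% of members and 10.4% of all promoters, and in 20.3% of those of brighter genes. Both strands were searched for each. AACGG can share bases with a CHR, and TTGGCGC with a reversed CCAAT box. A match is a description of letters in 1 window per gene and says nothing of binding.

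**Figure D1:**
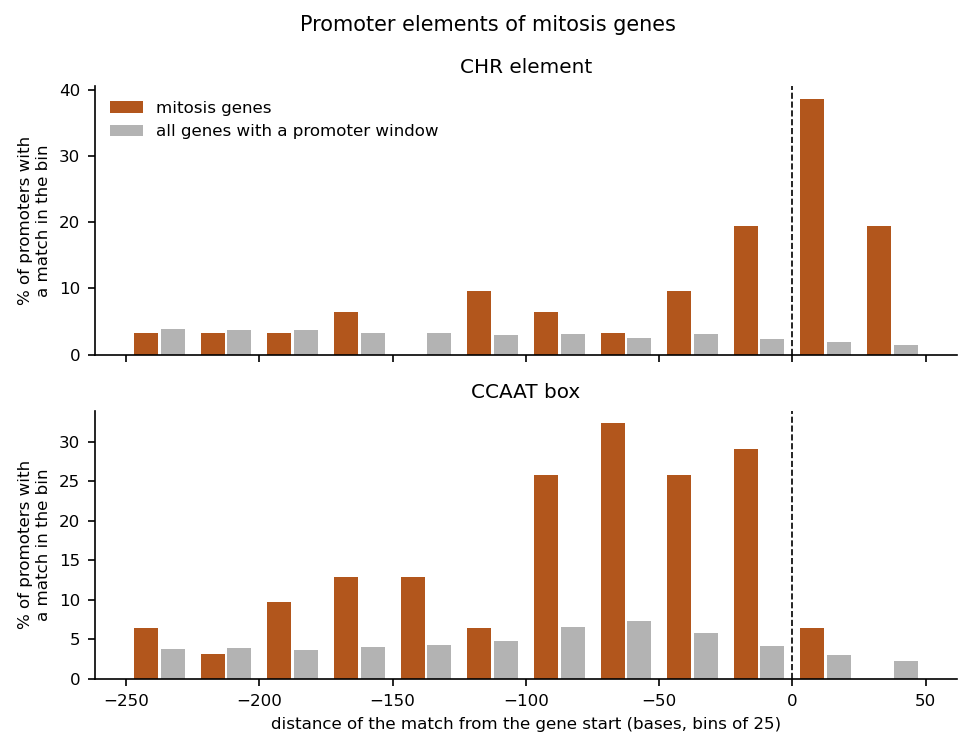
Share of promoters with a match in each bin of 25 bases, for the CHR element (upper panel) and the CCAAT box (lower panel), by distance from the gene start (dashed line); brown bars are 31 mitosis genes and grey bars all 27025 genes with a window. In the bin from 0 to 25 a CHR match is found in 38.7% of the mitosis genes and 1.93% of all genes, and CCAAT boxes of the mitosis genes lie mostly within 100 bases before the start.

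The vector was read back by the arrays. The Myb probe set (10368199) measured 7.96, 7.92 and 8.04 on the KY-1 GFP arrays and 9.59, 9.57, 9.55 and 9.54 on the KY-1 Myb arrays, a 2.99-fold rise (limma adjusted p = 3.89e-06). In KY-2 it measured 5.0 and 5.10 with GFP and 9.80, 9.67 and 9.75 with Myb, a 25.7-fold rise (limma adjusted p = 1.06e-10). Values spanned 1.49 to 13.96 log2, and the median of an array 5.31 to 5.42. Between 10 and 12 of 14 NK cell markers had a group mean above 8, while 0 of 5 B cell and 0 of 7 myeloid markers did. Of the NK markers, Eomes (4.86 and 4.71 in KY-1, 7.30 and 7.37 in KY-2) and Itga2 lay below 8 in all 4 groups. Ncr1 measured 9.72 in KY-1 with GFP, 7.76 in KY-1 with Myb, and 5.43 and 5.34 in KY-2. Tbx21 lay below 8 in KY-2 (7.98 with GFP and 7.60 with Myb). Of 7 T cell markers, Cd8a alone passed that level, in KY-2 only (11 with GFP and 10.36 with Myb, against 5.07 and 4.95 in KY-1). Of 5 erythroid and megakaryocyte markers, Tfrc alone did, in all 4 groups. Arrays 1 and 2 of KY-1 with GFP differed by less than other pairs, as did arrays 3 and 4 of KY-1 with Myb (robust SD of log2 differences 0.0469 and 0.0434, against 0.102 to 0.172), so each pair was averaged and counted as 1 sample. This left 2 GFP and 3 Myb replicates per line.

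**Figure D2:**
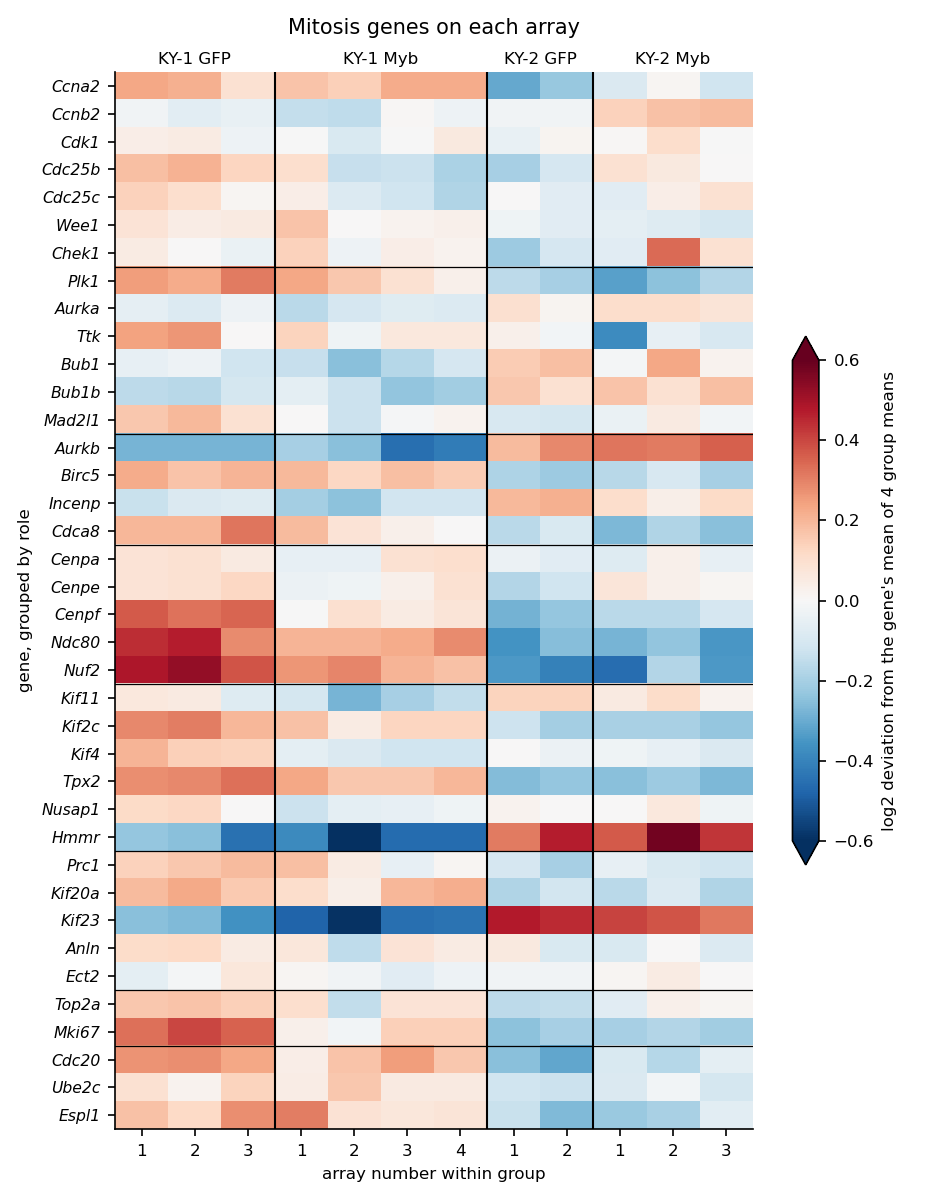
Deviation of each of the 38 mitosis genes (rows, grouped by role) from the mean of its 4 group means on each of the 12 arrays (columns), on a log2 scale that is capped at 0.6 in either direction. Nuf2, Ndc80, Cenpf and Mki67 are highest in KY-1 with GFP, while Hmmr, Kif23 and Aurkb are higher in KY-2 with both vectors.

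The first comparison asked whether raised Myb changed the mitotic transcripts of each line. In KY-1 the largest differences with the Myb vector were lower levels of Mki67 (Ki-67, which coats mitotic chromosomes), at -0.31 ± 0.08 log2 (SE; 1.24-fold), of Cenpf (a kinetochore protein), at -0.30 ± 0.07, and of Kif4 (a chromosome-bound kinesin), at -0.24 ± 0.07. In KY-2 the members with the smallest p-values had higher levels, among them Chek1 (a checkpoint kinase that delays mitosis), at 0.28 ± 0.11 (0.17 without KY-2 Myb array 2), Ccna2 (cyclin A2), at 0.20 ± 0.08, and Ccnb2 (cyclin B2), at 0.19 ± 0.08. None of these passed the test. In KY-1, 0 of 38 members had a limma adjusted p under 0.05, where 1.22% of all genes and 1.94% of the brighter genes did. In KY-2, 0 of 38 did, where 2.83% of all genes and 4.32% of the brighter genes did. The smallest limma adjusted p was 0.102 in KY-1 (Mki67) and 0.301 in KY-2 (Cenpe). At an unadjusted p under 0.05 there were 6 members in KY-1, all lower with Myb (5.53% of all genes and 6.51% of the brighter genes). In KY-2 there were 4, all higher (6.88% of all genes and 7.63% of the brighter genes). On the brightest probe sets, every member's 95% interval, which is not widened for the number of genes, lay within 1.5-fold in both lines. On the log2 scale these ran from -0.48 (Mki67) to 0.30 (Chek1) in KY-1 and from -0.43 (Ttk) to 0.53 (Chek1) in KY-2. This bound does not cover the second probe set of Top2a. The mean of the 2 Top2a probe sets gave a larger Myb effect in KY-1, -0.35 ± 0.12 (limma adjusted p = 0.273).

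In KY-1 the members lay mostly a little below 0: 35 of 38 had a lower mean with the Myb vector, with a median of -0.103 log2 and a range from -0.31 to 0.05. Over all genes 50.4% were lower and the median was -0.001, and of the brighter genes 50.1% were lower. Single arrays of the 2 groups did not overlap for 13 members, all lower with Myb, where 9.88% of all genes were lower without overlap and 9.16% higher. Of the brighter genes, 13.4% were lower without overlap and 13.5% higher. In KY-2, 26 of 38 had a higher mean with Myb, with a median of 0.038 and a range from -0.18 to 0.28. Over all genes 53.0% were higher and the median was 0.011, and over the brighter genes 47.0% and -0.01. In that line 12 members were higher without overlap (16.4% of all genes and 18.2% of the brighter genes) and 5 lower (14.6% and 21.3%). The members were measured on the same arrays, so their signs are not separate observations. Counted over both lines, 24 members had a lower mean in KY-1 and a higher one in KY-2. That is 63.2%, against 25.4% of all genes and 20.6% of the brighter genes. Of the rest, 11 were lower in both, and Ccna2 and Chek1 were higher in both. Wee1 had a difference above 0 in KY-1 and below it in KY-2. By role, the medians in KY-1 ran from -0.226 (chromosome structure, 2 genes) to -0.024 (entry into mitosis, 7 genes), and those in KY-2 from -0.026 (passenger complex, 4 genes) to 0.191 (entry into mitosis).

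Single arrays weighed on these medians. KY-1 Myb array 2 was the lowest of its group for 20 of 38 members, and without it the KY-1 median was -0.075. KY-2 Myb array 2 was the highest of its group for 23, and without it the KY-2 median was 0.014 with 21 members above 0. The KY-1 arrays also fell into 2 sets, seen in the data and not given in the labels. Deviations of GFP arrays 1 and 2 from their group mean went with those of Myb arrays 3 and 4. Those of GFP array 3 went with Myb arrays 1 and 2. Deviations within a group sum to 0, so the latter largely follows from the former and is no separate observation. Within these sets the median of the members was -0.097 and -0.091 (over all genes -0.022 and 0.014), with 35 and 32 of 38 below 0. With each close pair counted as 1 replicate, the first set compares 1 replicate with 1, and the second 1 GFP array with 2 Myb arrays. The sets were drawn from these same data, so the values within them are a description. The within-set differences were -0.23 and -0.35 for Mki67, -0.29 and -0.30 for Cenpf, -0.30 and -0.20 for Kif4, and -0.19 and -0.18 for Kif23. Over 21 alternative settings, 29 to 36 members lay below 0 in KY-1 and 21 to 27 above 0 in KY-2.

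**Figure D3:**
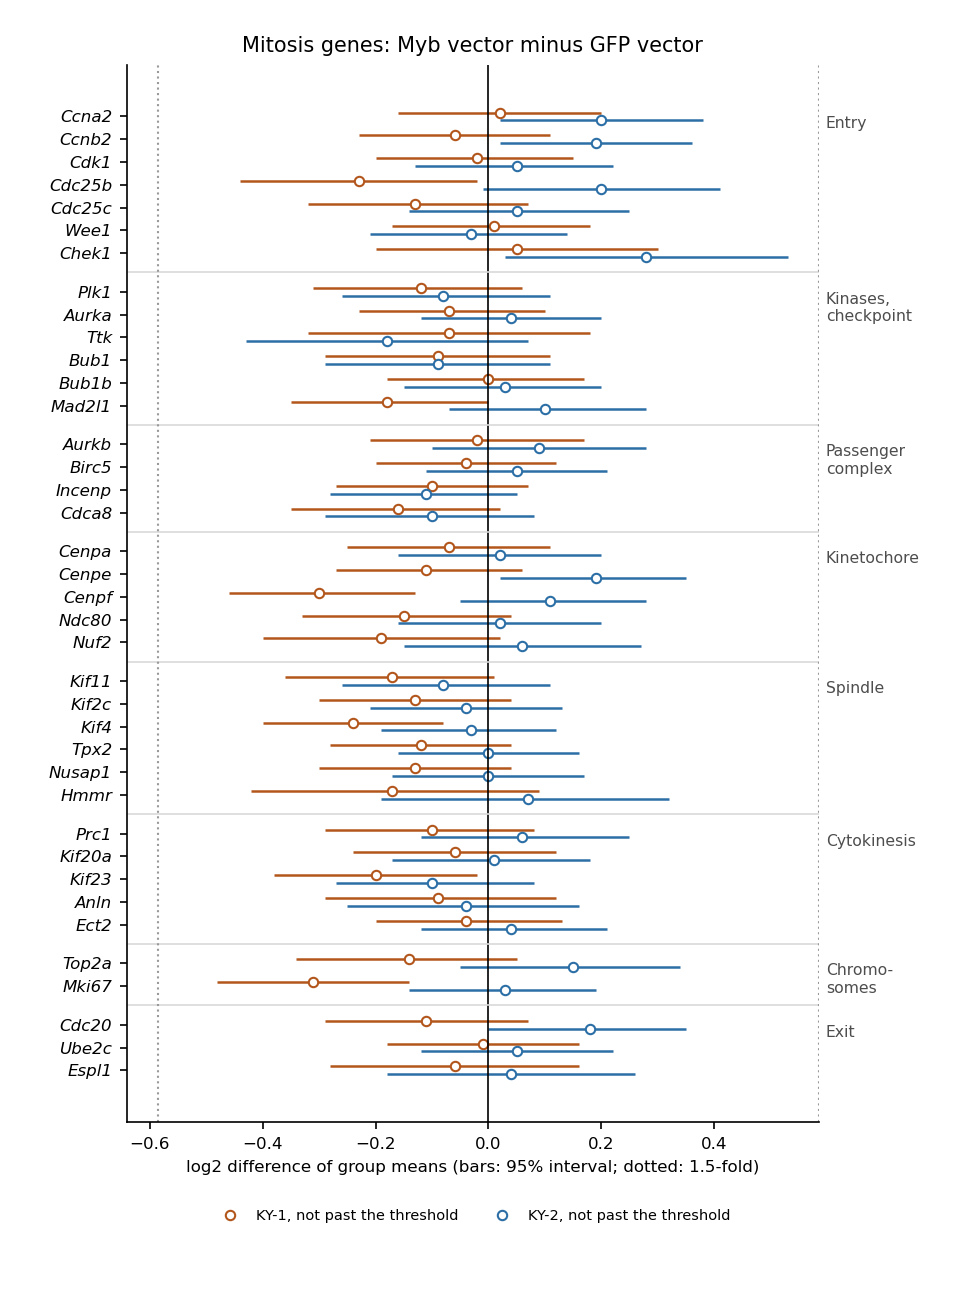
Log2 difference between the Myb and the GFP vector for each of the 38 mitosis genes in KY-1 (brown) and KY-2 (blue), with 95% intervals as bars and 1.5-fold as dotted lines. Open circles mark an adjusted p of 0.05 or more, which holds for all 38 genes in both lines, and most brown points lie to the left of 0.

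The mean effect over both lines and the difference between the lines were tested in the same model. Over both lines 0 of 38 members passed, where 3.1% of all genes and 4.96% of the brighter genes did. The smallest p-values belonged to Kif4 (-0.14 ± 0.05), Mki67 (-0.14 ± 0.05), Kif23 (-0.15 ± 0.06) and Cdca8 (-0.13 ± 0.06), with limma adjusted p from 0.239 to 0.351. For the difference, the effect in KY-2 minus that in KY-1, 0 of 38 passed, where 0.843% of all genes and 1.14% of the brighter genes did. Cenpf differed by 0.41 ± 0.11 (limma adjusted p = 0.134), Cdc25b by 0.43 ± 0.13 (0.235), Mki67 by 0.34 ± 0.11 (0.263) and Cenpe by 0.29 ± 0.11 (0.339). At an unadjusted p under 0.05 there were 4 members in the mean effect, all lower (6.91% of all genes and 9.71% of the brighter genes). In the difference there were 8, all above 0 (5.43% and 5.37%). The median difference between the lines was 0.105 log2 (0.010 over all genes and -0.01 over the brighter genes). The calls of 0 in the Myb comparisons depended on 3 settings. Fitting all 12 arrays as separate replicates, or the brighter genes alone, called Mki67, Cenpf and Kif4 lower in KY-1 and Cenpf in the difference. A prior variance that follows the level called Mki67 and Cenpf in both, Ccnb2 higher in KY-2, and Mki67 in the mean effect. Of the brighter genes fitted alone, 4.31% were called in KY-1 (1.98% lower) and 2.77% in the difference. Shares at the other settings are not given here. Over the alternatives, calls among all genes tested in KY-1 ran from 72 to 823, against 244 in the main fit. In the difference they ran from 88 to 427, against 168.

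The second comparison asked how the lines differ with the same vector. Between the lines, mitotic transcripts differed in both directions. Kif23 (a kinesin of the central spindle) was higher in KY-2 by 0.77 ± 0.09 log2 with GFP (1.71-fold) and by 0.87 ± 0.07 with Myb (1.83-fold), and Hmmr (a spindle protein) by 0.73 ± 0.13 and 0.97 ± 0.10. The kinetochore genes Nuf2 and Ndc80 were lower in KY-2, at -0.82 ± 0.10 and -0.67 ± 0.09 with GFP. With GFP, 22 of 38 members passed (57.9%), 5 higher and 17 lower in KY-2, against 28.9% of all genes (13.6% higher and 15.2% lower) and 45.7% of the 9969 brighter genes, from which all members came. With Myb, 22 of 38 passed (57.9%), 9 higher and 13 lower, against 31.6% of all genes (14.7% higher and 16.9% lower) and 51.2% of the brighter genes. By direction with GFP, 13.2% of members were higher and 44.7% lower, against 21.4% and 24.2% of the brighter genes. With Myb, 23.7% were higher and 34.2% lower, against 22.4% and 28.8%. The gap to the brighter genes was not tested. Of those called, 5 of 38 members with GFP (Cenpf, Ndc80, Nuf2, Kif23 and Hmmr) and 3 with Myb (Aurkb, Kif23 and Hmmr) reached 1.5-fold. By the same rule 2716 of all 19938 genes and 2110 of the 9969 brighter genes did with GFP. With Myb, 2312 and 1829 did. On the mean of its 2 probe sets, Top2a reached it with GFP as well (-0.88 ± 0.13). The median difference was -0.195 log2 with GFP (-0.039 over all genes) and -0.025 with Myb (-0.014 over all genes), the latter between -0.075 (without KY-1 Myb array 2) and 0.016 (without KY-1 Myb arrays 3 and 4) when single replicates were left out. Single arrays did not overlap for 32 members with GFP (57.4% of all genes, and 76.4% of the brighter genes) and for 27 with Myb (39.9% and 62.1%).

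The comparisons with GFP and with Myb share no arrays, though they share a residual variance per gene. A total of 18 genes passed in both, 18 of the 22 in each list, and none changed direction. That is 47.4% of the members, against 22.7% of all genes and 38.6% of the brighter genes called in the same direction with both. Higher in KY-2 with both were Aurkb, Bub1b, Hmmr, Incenp and Kif23. Lower with both were Birc5, Ccna2, Cdc20, Cdca8, Cenpf, Espl1, Kif20a, Kif2c, Mki67, Ndc80, Nuf2, Plk1 and Tpx2. Cdc25b, Cenpe, Prc1 and Top2a passed with GFP only, and Aurka, Bub1, Ccnb2 and Kif11 with Myb only. Whether the line difference itself depended on the vector is the same test as the difference in Myb effect above, in which no member passed. With each of the 10 replicates left out in turn, 13 of 22 calls remained every time with GFP and 13 of 22 with Myb, and 9 genes remained with both (Aurkb, Birc5, Hmmr, Kif23, Kif2c, Ndc80, Nuf2, Plk1 and Tpx2). With GFP, 14 genes were called without KY-1 GFP array 3, and 15 without the pair of KY-1 GFP arrays 1 and 2 or without either KY-2 GFP array. With Myb, the fewest were 15, without the pair of KY-1 Myb arrays 3 and 4. Over all genes, calls with a replicate left out ran from 4096 to 5825 with GFP, against 5757 in the main fit. With Myb they ran from 5457 to 6192, against 6305. The summed level of the T cell markers, which Cd8a moves, ran from 36.0 to 37.1 on the KY-1 arrays and from 41.5 to 43.2 on the KY-2 arrays, and its part in the line differences was not tested.

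**Figure D4:**
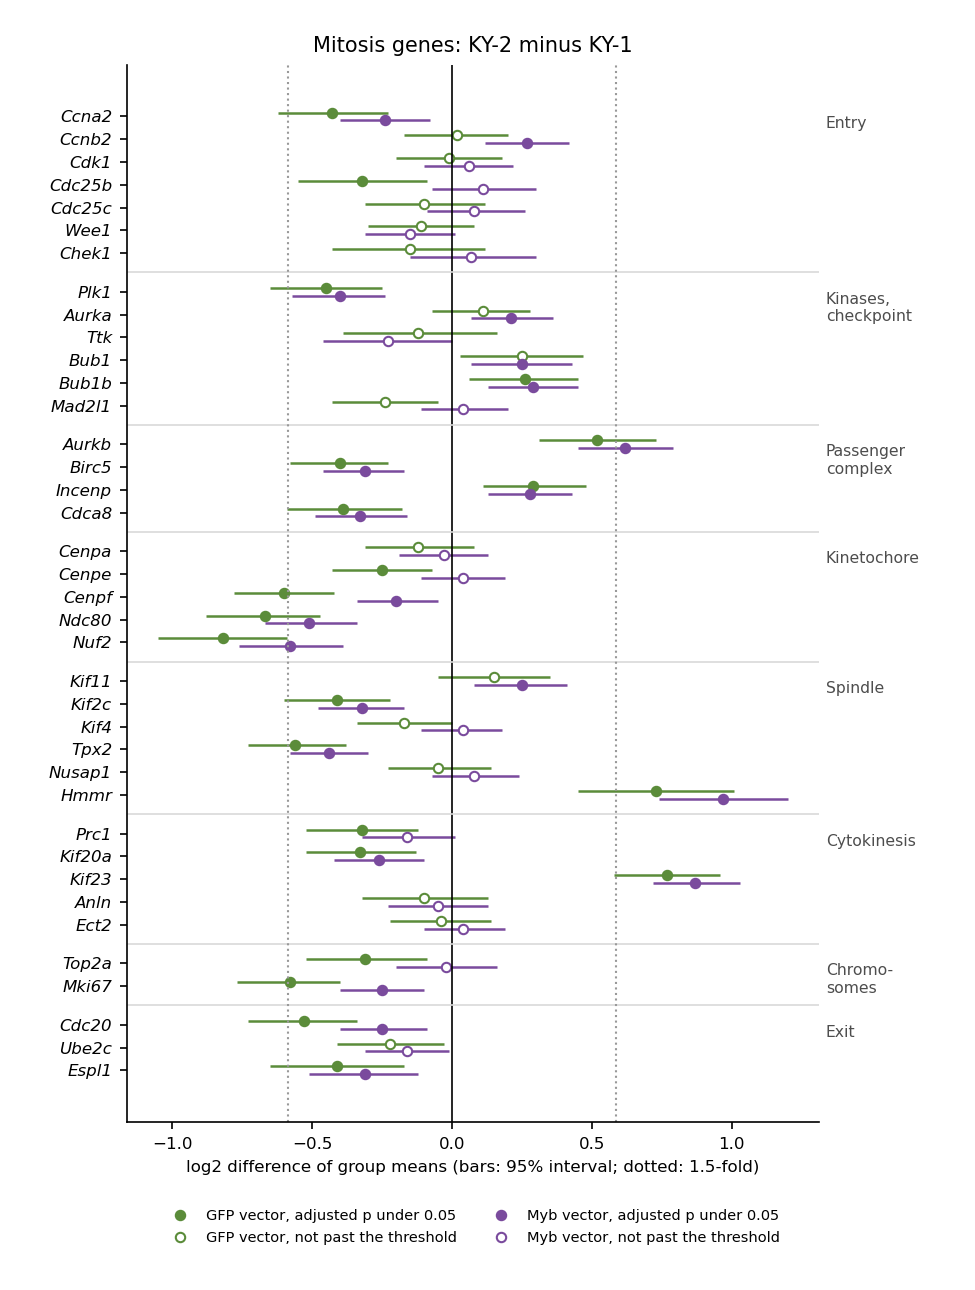
Log2 difference between KY-2 and KY-1 for each of the 38 mitosis genes with the GFP vector (green) and the Myb vector (purple), with 95% intervals; filled circles mark a limma adjusted p under 0.05 and dotted lines 1.5-fold. Within the chromosomal passenger complex Aurkb and Incenp lie to the right of 0 and Birc5 and Cdca8 to the left, with both vectors.

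Levels are given below by role, on the deposited log2 scale, for KY-1 GFP, KY-1 Myb, KY-2 GFP and KY-2 Myb arrays in that order. Adjusted p-values are from limma, and differences carry the SE of the model. Levels of different genes come from different probe sets and are not compared with each other.

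Entry into mitosis is driven by Cdk1 with cyclins A and B, which the phosphatases Cdc25b and Cdc25c switch on and the kinase Wee1 holds back. Ccna2 measured 10.80, 10.78 and 10.66 in KY-1 with GFP, 10.74, 10.71, 10.79 and 10.79 with Myb, 10.26 and 10.34 in KY-2 with GFP and 10.48, 10.58 and 10.45 with Myb. All KY-2 arrays lay below all KY-1 arrays, the KY-2 GFP arrays lowest. The line difference was -0.43 ± 0.09 with GFP (adjusted p = 0.00389) and -0.24 ± 0.07 with Myb (0.0244), the latter up to 0.087 over the alternatives. Ccnb2 measured 10.66, 10.62 and 10.64, then 10.54, 10.53, 10.69 and 10.65, then 10.66 and 10.66, then 10.82, 10.86 and 10.87. The 3 KY-2 Myb arrays stood above all the others, which overlapped. Its line difference was 0.02 ± 0.08 with GFP (adjusted p = 0.91) and 0.27 ± 0.07 with Myb (0.0105), and its Myb effect in KY-2 0.19 ± 0.08 (0.303).

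Cdk1 itself differed little over the 4 groups. It measured 10.30, 10.31 and 10.23 in KY-1 with GFP, 10.26, 10.17, 10.26 and 10.32 with Myb, 10.22 and 10.28 in KY-2 with GFP and 10.27, 10.37 and 10.26 with Myb, and the groups overlapped in every comparison. The Myb effect was -0.02 ± 0.08 in KY-1 and 0.05 ± 0.08 in KY-2, with 95% intervals from -0.20 to 0.15 and from -0.13 to 0.22, and the line difference was -0.01 ± 0.09 with GFP. Cdc25b measured 7.05, 7.08 and 7.0, then 6.97, 6.73, 6.74 and 6.68, then 6.67 and 6.77, then 6.96, 6.93 and 6.87. With Myb it was lower in KY-1 on all 4 arrays and higher in KY-2 on all 3, at -0.23 ± 0.09 (adjusted p = 0.395) and 0.20 ± 0.09 (0.4). Its line difference passed with GFP, at -0.32 ± 0.10 (0.0395, up to 0.2 over the alternatives). Chek1 measured 7.96, 7.91 and 7.87, then 8.05, 7.88, 7.95 and 7.93, then 7.69 and 7.81, then 7.84, 8.25 and 8.0, and KY-2 Myb array 2 stood highest of all. Cdc25c ranged from 8.33 to 8.65 over the 12 arrays and Wee1 from 7.73 to 8.01, with no call in any comparison.

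Plk1 and Aurka are kinases of centrosome and spindle assembly, and Bub1, Bub1b, Mad2l1 and Ttk serve the spindle checkpoint, which holds the cell until all chromosomes are attached. Plk1 measured 9.82, 9.79 and 9.88 in KY-1 with GFP, 9.80, 9.73, 9.66 and 9.60 with Myb, 9.41 and 9.37 in KY-2 with GFP and 9.24, 9.32 and 9.39 with Myb. The lines did not overlap, and KY-2 was lower, at -0.45 ± 0.09 with GFP (adjusted p = 0.00336) and -0.40 ± 0.08 with Myb (0.00152). Aurka measured 9.17, 9.14 and 9.19, then 9.06, 9.12, 9.15 and 9.14, then 9.32 and 9.24, then 9.33, 9.33 and 9.30. It lay higher on every KY-2 array, by 0.11 ± 0.08 with GFP (0.392) and 0.21 ± 0.07 with Myb (0.0304, up to 0.0981 over the alternatives), so it was opposite in sign to Plk1.

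Bub1 and Bub1b were both higher in KY-2. Bub1 measured 9.53, 9.55 and 9.46, then 9.44, 9.33, 9.41 and 9.48, then 9.73 and 9.76, then 9.57, 9.81 and 9.60, and Bub1b measured 9.60, 9.59 and 9.65, then 9.70, 9.63, 9.52 and 9.55, then 9.92 and 9.85, then 9.93, 9.85 and 9.94. No KY-2 array of either gene lay below a KY-1 array. The differences were 0.25 ± 0.10 and 0.25 ± 0.08 for Bub1 (adjusted p = 0.0903 and 0.0355), and 0.26 ± 0.09 and 0.29 ± 0.07 for Bub1b (0.0498 and 0.00972). The GFP call of Bub1b is at the edge of the threshold and was lost in 12 of 22 alternatives, up to 0.217, and the Myb call of Bub1 reached 0.135. Mad2l1 ranged from 10.07 to 10.39 and Ttk from 8.34 to 8.98, with no call. Mad2l1 was lower with Myb on all 4 arrays in KY-1 (-0.18 ± 0.08) and higher on all 3 in KY-2 (0.10 ± 0.08).

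The chromosomal passenger complex joins the kinase Aurkb to Incenp, Birc5 (survivin) and Cdca8 (borealin), and corrects faulty attachments of chromosomes to the spindle. Its 4 members split between the lines. Aurkb measured 10 on all 3 arrays of KY-1 with GFP (to 2 decimals), 10.08, 10.03, 9.83 and 9.86 with Myb, 10.47 and 10.57 in KY-2 with GFP and 10.60, 10.59 and 10.64 with Myb. KY-2 was higher on every array, by 0.52 ± 0.09 (adjusted p = 0.00158) and 0.62 ± 0.08 (8.3e-05). Incenp measured 9.04, 9.09 and 9.10, then 8.97, 8.93, 9.06 and 9.06, then 9.37 and 9.39, then 9.28, 9.21 and 9.29, and was higher in KY-2 by 0.29 ± 0.08 (0.0219, up to 0.105 over the alternatives) and 0.28 ± 0.07 (0.00865). Birc5 and Cdca8 went the other way. Birc5 measured 11.25, 11.20 and 11.23, then 11.22, 11.15, 11.21 and 11.18, then 10.84 and 10.81, then 10.86, 10.93 and 10.83, lower in KY-2, at -0.40 ± 0.08 (0.00282) and -0.31 ± 0.07 (0.00325). Cdca8 measured 9.97, 9.97 and 10.09, then 9.96, 9.85, 9.80 and 9.77, then 9.61 and 9.68, then 9.50, 9.59 and 9.52, lower, at -0.39 ± 0.09 (0.00802, up to 0.0664) and -0.33 ± 0.07 (0.00577). The Myb vector moved none of the 4 past the threshold.

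Kinetochores link chromosomes to spindle microtubules, and Ndc80 and Nuf2 are partners in the complex that grips the microtubule. Nuf2 measured 10.01, 10.05 and 9.90 in KY-1 with GFP, 9.79, 9.82, 9.73 and 9.70 with Myb, 9.18 and 9.12 in KY-2 with GFP and 9.07, 9.35 and 9.18 with Myb, and Ndc80 measured 9.75, 9.78 and 9.59, then 9.51, 9.51, 9.53 and 9.59, then 8.95 and 9.05, then 9.03, 9.07 and 8.96. In both genes every KY-2 array lay below every KY-1 array. Nuf2 was lower in KY-2, at -0.82 ± 0.10 with GFP (1.77-fold, adjusted p = 0.000121) and -0.58 ± 0.09 with Myb (0.000312), and Ndc80 at -0.67 ± 0.09 (0.000197) and -0.51 ± 0.07 (0.000299). Cenpf measured 9.22, 9.18 and 9.20, then 8.85, 8.95, 8.90 and 8.93, then 8.57 and 8.62, then 8.69, 8.69 and 8.75. Its 4 groups did not overlap: KY-1 with GFP was highest, KY-1 with Myb next, then KY-2 with Myb, and KY-2 with GFP lowest. The line difference was -0.60 ± 0.08 with GFP (0.000192) and -0.20 ± 0.07 with Myb (0.0441, lost in 16 of 22 alternatives, up to 0.118).

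Cenpe, a kinesin of the kinetochore, measured 9.42, 9.43 and 9.46, then 9.30, 9.31, 9.37 and 9.43, then 9.16 and 9.22, then 9.41, 9.37 and 9.35. The KY-2 GFP arrays lay below the other 10, and the line difference was -0.25 ± 0.08 with GFP (adjusted p = 0.0397, up to 0.191 over the alternatives) and 0.04 ± 0.07 with Myb (0.705). The Myb effect in KY-2, 0.19 ± 0.07, did not pass (0.301). Cenpa, the histone variant that marks centromeres, ranged from 10.17 to 10.35 with no call.

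Of the motors and microtubule binders of the spindle, Hmmr and Kif11 were higher in KY-2 and Tpx2 and Kif2c lower. Hmmr measured 9.15, 9.13 and 8.93 in KY-1 with GFP, 9.0, 8.69, 8.92 and 8.92 with Myb, 9.69 and 9.85 in KY-2 with GFP and 9.75, 9.96 and 9.81 with Myb. Every KY-2 array lay above every KY-1 array, and the spread within groups was the widest of the members (residual SD 0.138, against a median of 0.0617). The line difference was 0.73 ± 0.13 with GFP (1.66-fold, adjusted p = 0.00113) and 0.97 ± 0.10 with Myb (1.96-fold, 2.73e-05). Tpx2, which activates Aurka on the spindle, measured 9.68, 9.69 and 9.73, then 9.63, 9.56, 9.56 and 9.60, then 9.14 and 9.17, then 9.15, 9.18 and 9.13, with the smallest residual SD of the members (0.0303). It was lower in KY-2, at -0.56 ± 0.08 (0.000266) and -0.44 ± 0.06 (0.000288).

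Kif2c, which takes microtubules apart at kinetochores, measured 8.89, 8.91 and 8.80, then 8.78, 8.65, 8.73 and 8.73, then 8.48 and 8.40, then 8.41, 8.41 and 8.37. The lines did not overlap, and KY-2 was lower, at -0.41 ± 0.09 with GFP (adjusted p = 0.00372) and -0.32 ± 0.07 with Myb (0.00435). Kif11, the motor that pushes spindle poles apart, measured 10.49, 10.48 and 10.35, then 10.32, 10.15, 10.23 and 10.28, then 10.56 and 10.56, then 10.48, 10.54 and 10.45. It was higher in KY-2 by 0.25 ± 0.07 with Myb (0.0254, up to 0.0855 over the alternatives), and with GFP the difference was 0.15 ± 0.09 (0.27). Kif4 measured 8.69, 8.63 and 8.62, then 8.43, 8.40, 8.37 and 8.37, then 8.49 and 8.45, then 8.46, 8.44 and 8.40. The KY-1 GFP arrays stood above the 9 others, which overlapped, and the Myb effect in KY-1 was -0.24 ± 0.07 (0.201). Nusap1, a microtubule bundler, ranged from 9.30 to 9.55 with no call.

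At the central spindle, where the cleavage furrow forms, Kif23 and its fellow genes parted. Kif23 measured 9.19, 9.18 and 9.08 in KY-1 with GFP, 8.96, 8.85, 8.99 and 9.0 with Myb, 9.92 and 9.89 in KY-2 with GFP and 9.85, 9.82 and 9.76 with Myb. The lines were further apart than the arrays of any group, at 0.77 ± 0.09 with GFP (adjusted p = 5.26e-05) and 0.87 ± 0.07 with Myb (3.24e-06), the smallest p-values among the members. Within each line the Myb arrays lay below the GFP arrays, at -0.20 ± 0.08 in KY-1 (0.383) and -0.10 ± 0.08 in KY-2 (0.71). Prc1, which crosslinks the microtubules of the central spindle, measured 9.41, 9.43 and 9.46, then 9.45, 9.32, 9.22 and 9.28, then 9.17 and 9.07, then 9.22, 9.18 and 9.15, lower in KY-2, at -0.32 ± 0.09 with GFP (0.0219, up to 0.137). Kif20a, a further kinesin of that site, measured 9.01, 9.05 and 8.98, then 8.93, 8.86, 9.02 and 9.04, then 8.64 and 8.71, then 8.66, 8.74 and 8.64. It was lower in KY-2, at -0.33 ± 0.09 (0.0158, up to 0.0997) and -0.26 ± 0.07 (0.0164, up to 0.0618). Anln, a scaffold of the contractile ring, ranged from 9.01 to 9.28 and Ect2, the activator of RhoA at the furrow, from 8.84 to 8.98, neither with a call.

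Mki67 measured 10.69, 10.76 and 10.71 in KY-1 with GFP, 10.39, 10.34, 10.50 and 10.50 with Myb, 10.11 and 10.16 in KY-2 with GFP and 10.16, 10.18 and 10.15 with Myb. KY-1 GFP arrays were highest, KY-1 Myb arrays intermediate without overlap, and the 5 KY-2 arrays lowest, where the vectors overlapped. The line difference was -0.58 ± 0.08 with GFP (adjusted p = 0.000306) and -0.25 ± 0.07 with Myb (0.017, up to 0.0629 over the alternatives). Top2a, the topoisomerase that untangles sister chromosomes, measured 11.41, 11.42 and 11.39, then 11.35, 11.10, 11.33 and 11.33, then 11.09 and 11.10, then 11.18, 11.28 and 11.26 on its brighter probe set (10390707), lower in KY-2, at -0.31 ± 0.10 with GFP (0.0355, up to 0.151). Its dimmer probe set (10390746) measured 10.92, 10.87 and 10.63 in KY-1 with GFP, 10.20, 9.91, 10.47 and 10.52 with Myb, 9.16 and 9.48 in KY-2 with GFP, and 9.36, 9.52 and 9.56 with Myb. The dimmer set thus showed a wider gap between the lines. With the mean of both sets the line difference was -0.88 ± 0.13 with GFP (adjusted p = 0.00036) and -0.37 ± 0.11 with Myb (0.019), and the Myb effect in KY-1 -0.35 ± 0.12 (0.273), so the size of the Top2a difference depends on the probe set.

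Mitotic exit begins when Cdc20 directs the anaphase-promoting complex, with its enzyme Ube2c, against cyclin B and the inhibitor of separase (Espl1), which cuts cohesin. Cdc20 measured 10.12, 10.13 and 10.08 in KY-1 with GFP, 9.89, 10.02, 10.10 and 10.01 with Myb, 9.60 and 9.54 in KY-2 with GFP and 9.76, 9.68 and 9.79 with Myb. All KY-2 arrays lay below all KY-1 arrays, at -0.53 ± 0.09 with GFP (adjusted p = 0.000859) and -0.25 ± 0.07 with Myb (0.0234, up to 0.082 over the alternatives). Espl1 measured 7.82, 7.76 and 7.92, then 7.95, 7.73, 7.71 and 7.72, then 7.51 and 7.38, then 7.42, 7.45 and 7.58, lower in KY-2, at -0.41 ± 0.11 (0.0152, up to 0.111) and -0.31 ± 0.09 (0.0192, up to 0.0781). Ube2c ranged from 9.58 to 9.87 with no call.

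**Figure D5:**
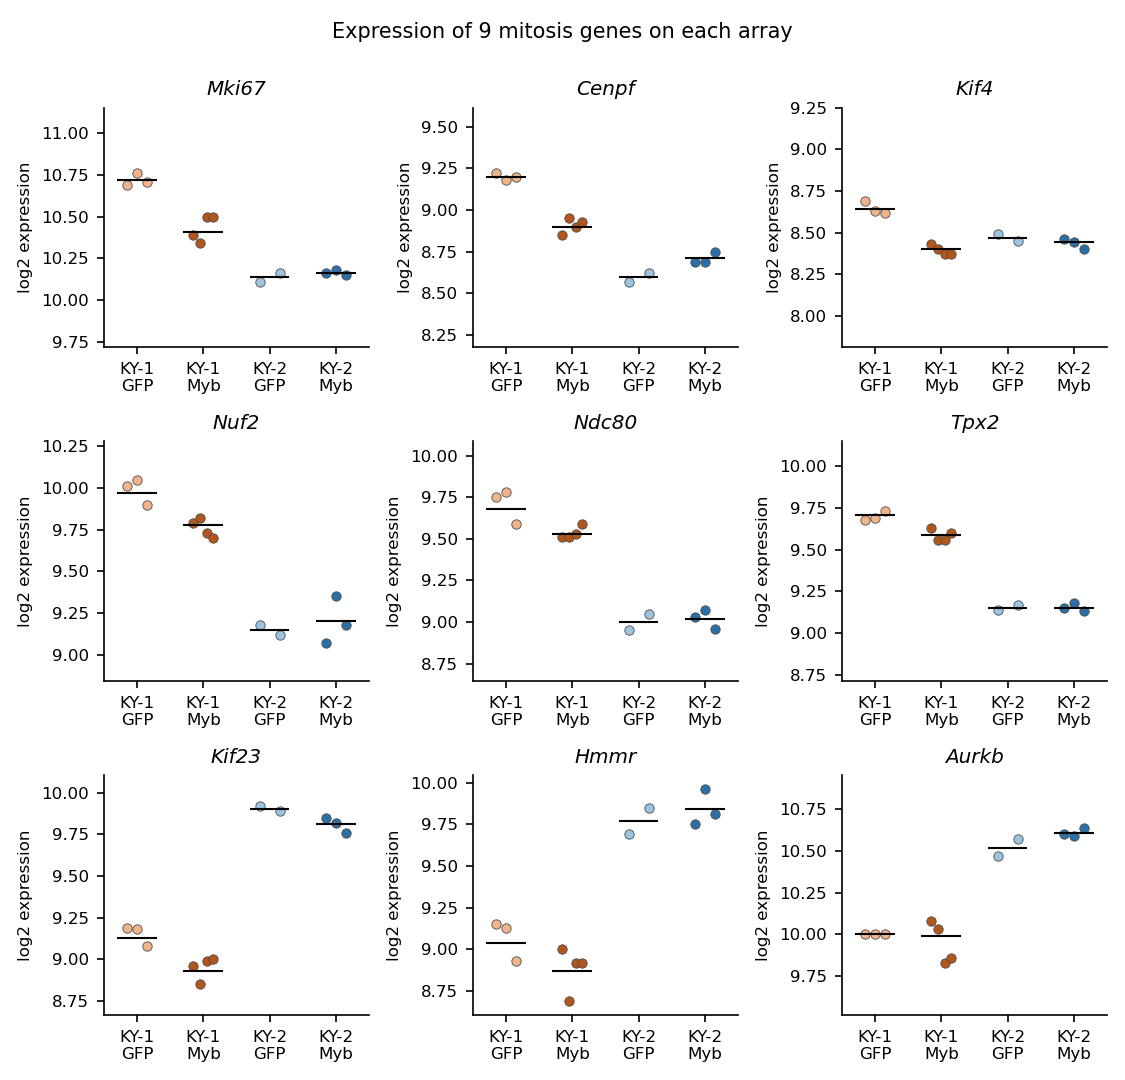
Log2 expression of 9 mitosis genes on each array (points) with the mean of the replicates (lines), in the 4 groups; each panel spans the same number of log2 units but has its own origin. Mki67 and Cenpf are highest in KY-1 with GFP, next in KY-1 with Myb and lowest in KY-2, Kif23, Hmmr and Aurkb are higher in KY-2, and Nuf2, Ndc80 and Tpx2 lower.

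The other genes of mitosis, from lists chosen by function, held few calls with Myb. Between the lines, the share called ran over the 8 lists from 38.9% to 63.2% with GFP and from 33.3% to 68.8% with Myb, on either side of the 45.7% and 51.2% of the brighter genes. With Myb, 0 of 33 other kinetochore genes, 0 of 30 spindle, centrosome and cytokinesis genes, 0 of 19 condensin and cohesin genes and 0 of 17 genes of the anaphase-promoting complex passed in either line, where 1.22% and 2.83% of all genes did. Median differences in KY-1 were -0.045, -0.145, -0.114 and 0.037 for these lists, and -0.010 for 27 replication genes of S phase, beside -0.103 for the mitosis genes. In KY-2 they were 0.035, 0.045, 0.034 and 0.002, and 0.085 for the S phase genes, beside 0.038. For the effect in KY-2 minus that in KY-1 they were 0.066, 0.168, 0.151 and -0.031, and 0.125 for the S phase genes, beside 0.105. Of the S phase genes, 24 of 27 had a higher mean with Myb in KY-2. Averaged over the lines, 1 of 33 other kinetochore genes passed (3.03%), 1 of 6 CDK inhibitors and 1 of 16 transcription factors, where 3.1% of all genes did. The kinetochore gene was Cenpm, which rose by 0.23 ± 0.05 (limma adjusted p = 0.0377). The inhibitor was Cdkn2c, which acts on Cdk4 and Cdk6 and fell by 0.30 ± 0.07 (0.0461). The transcription factor was lower. How far the calls in these lists depend on the settings is not given here. Among these 16 transcription factors of the programme, 1 passed in KY-1, where 1.22% of all genes did. It was Tfdp2, a partner of E2F factors, which fell with Myb by 0.44 ± 0.08 (limma adjusted p = 0.0339). Foxm1 differed by -0.09 ± 0.09 in KY-1 and 0.29 ± 0.09 in KY-2, and Mybl2 by 0.02 ± 0.12 and 0.18 ± 0.12, none past the threshold.

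Between the lines with GFP, the 16 transcription factors had 0 higher and 8 lower in KY-2, and with Myb 1 and 10. Beside this and the list counts below, 21.4% of the brighter genes were higher and 24.2% lower with GFP (22.4% and 28.8% with Myb). Over all genes 13.6% were higher and 15.2% lower with GFP (14.7% and 16.9% with Myb). The gaps of the lists to these shares were not tested. Mybl2 measured 7.97, 8.03 and 8.30 in KY-1 with GFP, 8.33, 8.07, 8.07 and 8.16 with Myb, 7.27 and 7.28 in KY-2 with GFP and 7.43, 7.61 and 7.31 with Myb. It was lower in KY-2, at -0.88 ± 0.13 with GFP (limma adjusted p = 0.000438) and -0.72 ± 0.11 with Myb (0.000337), and Foxm1 at -0.64 ± 0.10 (0.000616) and -0.26 ± 0.08 (0.0358). Nfya, a subunit of NF-Y, was lower, at -0.76 ± 0.09 and -0.68 ± 0.07, Lin54, the MuvB subunit that binds the CHR, at -0.75 ± 0.10 and -0.54 ± 0.08, and Rbl1, a pocket protein, at -0.80 ± 0.10 and -0.60 ± 0.08. Among 33 other kinetochore genes 4 were higher and 9 lower with GFP (6 and 10 with Myb). Ska2 was lower, at -0.85 ± 0.08, and Cenpo higher by 0.85 ± 0.09. Among 30 spindle, centrosome and cytokinesis genes 1 was higher and 16 lower with GFP (3 and 11 with Myb). Cit lay at -0.67 ± 0.09, Cenpj at -0.63 ± 0.09 and Racgap1, the partner of Kif23 in the centralspindlin complex, at -0.53 ± 0.08 (limma adjusted p = 0.000516). Racgap1 thus lay in the opposite direction to Kif23.

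Of 19 condensin and cohesin genes, 2 were higher and 10 lower in KY-2 with GFP (2 and 9 with Myb). The calls with GFP were led by Ncapg2 at -0.89 ± 0.10 and Nipbl, the loader of cohesin, at -0.73 ± 0.10. The anaphase-promoting complex had 2 higher and 5 lower of 17 with each vector, with Anapc7 at -0.56 ± 0.09. Other regulators of entry and exit had 1 higher and 6 lower of 18 with GFP and 0 and 6 with Myb, with Pkmyt1, a kinase that restrains Cdk1, at -0.38 ± 0.09. Replication genes of S phase had 3 higher and 14 lower of 27 with GFP and 4 and 12 with Myb, with Rrm2, a subunit of ribonucleotide reductase, at 0.87 ± 0.08 and Cdc6, which loads the replicative helicase, at -0.80 ± 0.10. The CDK inhibitors had 2 higher and 1 lower of 6 with each vector. Among them Cdkn2a was higher in KY-2 by 0.89 ± 0.11 with GFP and Cdkn1b, the inhibitor p27, lower, at -0.59 ± 0.12. Medians over these lists with GFP were -0.138 (kinetochore), -0.297 (spindle), -0.369 (condensin and cohesin), -0.039 (anaphase-promoting complex), -0.286 (transcription factors) and -0.296 (S phase). They were -0.183 for the other regulators of entry and exit and, above 0, 0.232 for the CDK inhibitors. Beside these stood -0.195 for the mitosis genes and -0.039 for all genes.

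The members varied little between replicates. Their median residual SD was 0.0617 log2 (0.0303 to 0.138), against 0.0944 for the brighter genes and 0.12 for all genes. The median half-width of a member's 95% interval was 0.18 for the Myb effect in each line and 0.19 and 0.16 for the line difference with GFP and with Myb. Members with a CHR match (25) had a median Myb effect in KY-1 of -0.105 and those without (6) of -0.153, and in KY-2 of 0.038 and 0.080. The line difference with GFP had a median of -0.220 in members with a CHR match and -0.196 in those without, and that with Myb -0.051 and 0.078. These medians are a description and were not tested.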

How the data were processed

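The deposited values are log2 expression levels per probe set on 12 arrays; the submitters' processing notes list Partek and RMA, with options and genome build not stated in the sources used here. Of 35556 probe sets, 21789 were paired with 1 symbol, 1621 with several and 12146 with none; the brightest per symbol was kept, giving 19938 genes. A model of 4 group means over 10 replicates was fitted to all genes with limma 3.58.1 in R 4.3.3 (6 residual degrees of freedom), with Benjamini-Hochberg adjustment over all genes and a threshold of 0.05. The study belongs to work on microRNA-15/16 and Myb in NK cells.

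The members and gene lists were chosen with earlier results of these data known. By rule, values on every array were given for members called in any comparison, for the 4 with the smallest p in each Myb comparison, and for Mki67, Ccnb1, Cdk1, Top2a, Plk1, Aurka and Aurkb; other lists were named by up to 4 called genes per comparison. The fit was tested on simulated data. Alternatives covered the array pairs, filter, centring, moderation, blocks and left-out replicates.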

Additional observations from a re-analysis of the deposited data

Results flagged for a closer look

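Of the 38 mitosis genes, 4 had all KY-1 Myb arrays below all KY-1 GFP arrays and all KY-2 Myb arrays above all KY-2 GFP arrays. The same pattern was seen in 1.35% of all genes and 1.93% of the brighter genes. The 4 genes were picked for it, so their differences of effect are a description. The Myb effect in KY-2 minus that in KY-1 was 0.41 log2 for Cenpf (limma adjusted p = 0.134), 0.43 for Cdc25b (0.235), 0.29 for Top2a (0.461) and 0.28 for Mad2l1 (0.406). None of these differences passed the test, and for Top2a the mean of its 2 probe sets gave 0.51 ± 0.17 (limma adjusted p = 0.279). No group held the 4 replicates needed to look for a single outlying sample.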

How the results depend on the processing

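No call changed direction under the alternatives run. The median line difference with Myb, -0.025, changed sign in 4 of them: 0.016 without KY-1 Myb replicate 3, 0.003 without KY-1 Myb replicate 1, 0.003 without KY-2 Myb replicate 1 and 0.004 with a block of the 2 sets of KY-1 arrays. Calls with the Myb vector in KY-1 numbered 3 with all 12 arrays as separate replicates, 3 with only the brighter genes and 2 with trended moderation. In KY-2 there was 1 and in the mean effect 1, each with trended moderation. In the difference of effects there were 1, 1 and 2 under the same 3 settings. Calls among all genes tested moved too over the alternatives, from 72 to 823 in KY-1 and from 182 to 888 in KY-2. They ran from 142 to 1143 in the mean effect and from 88 to 427 in the difference. Requiring 1.5-fold left 5 line calls with GFP and 3 with Myb, where it left 2716 and 2312 of 19938 genes. Leaving out each replicate gave 14 to 22 calls with GFP and 15 to 21 with Myb, and 0 in the Myb comparisons. Over all genes the line calls then ran from 4096 to 5825 with GFP and from 5457 to 6192 with Myb. The Myb comparisons then called 72 to 227 genes in KY-1 and 182 to 556 in KY-2. They called 314 to 505 in the mean effect and 88 to 142 in the difference. Medians without each replicate ran from -0.118 to -0.075 in KY-1, 0.014 to 0.043 in KY-2, -0.050 to -0.014 for the mean effect, 0.107 to 0.144 for the difference, -0.215 to -0.171 between the lines with GFP and -0.075 to 0.016 with Myb. Median centring moved the medians to -0.060 in KY-1, 0.042 for the difference and -0.130 between the lines with GFP, with 5 higher and 11 lower calls with GFP and 8 and 12 with Myb. With the replicate block, calls were 0 in each Myb comparison, 23 with GFP and 21 with Myb, and the medians -0.108, 0.038, -0.036, 0.131, -0.201 and -0.023. Deviations of same-numbered samples from their group means had correlations from -0.465 to 0.278. Such deviations sum to 0 within these small groups, so the correlations cannot settle whether the numbers pair the samples. A block of the 2 sets of KY-1 arrays, chosen after seeing the data, gave 18 and 19 line calls. The causes of these changes were not tested. With 2 or 3 replicates a group and no detection calls, the number of arrays limits precision.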
